A study of Mus musculus with 3 samples.

Results

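Gamma-synuclein (Sncg, ENSMUSG00000023064) is described here across the cells of the ascending aorta of mice with and without a mutation of fibrillin-1. It is 1 of the 32285 genes counted. The gene was selected on 2 features of these same data, namely a higher level in mutant smooth muscle cells (SMCs) and a small change under losartan. Those levels are therefore a description and support nothing by themselves.

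The 3 libraries came from male C57BL/6J mice at postnatal day 45. The WT library pooled the ascending aortas of 3 wild-type mice, the mgR library those of 3 Fbn1 mgR/mgR mice, and the mgR-LOS library those of 4 Fbn1 mgR/mgR mice that had drunk losartan at 0.6 g/L from postnatal day 16. The mgR allele is hypomorphic and present in every cell of the animal, so that too little fibrillin-1, the backbone of the elastic fiber's microfibrils, is made throughout life. Losartan blocks the angiotensin II type 1 receptor. For the mgR library the labels do not say whether those mice drank the vehicle. Since each condition is a single pooled library, differences between animals cannot be seen, no test between conditions was possible, and every interval below is a 95% interval that covers counting error only.

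Synucleins are small, natively unfolded proteins that bind membranes. In nerve terminals, members of the family bind synaptic vesicles. Gamma-synuclein is best known from peripheral neurons, retinal ganglion cells and adipocytes, and from some tumors. Medial SMCs of the aorta, by contrast, are known for their contractile apparatus and for the elastic matrix that they make.

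Sncg lies on the minus strand of chromosome 14 (chr14:34370274-34374789, GRCm38, GENCODE M21), has 5 exons in its single annotated transcript, and overlaps no other annotated gene. None of the 828 stretches of 25 bases in the Sncg transcript occurred in a transcript of any other gene, so no annotated paralog or pseudogene shares a stretch of that length with it.

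Cells with 600 to 5000 detected genes and at most 10% mitochondrial transcripts were kept, which left 5361 WT, 8076 mgR and 12721 mgR-LOS cells with medians of 13636, 12411 and 8334 unique molecular identifiers (UMIs). The mgR-LOS cells were thus the shallowest. Between 22 and 46 cell barcodes were shared by each pair of libraries. Clusters were named from fixed markers, and all 8 SMC markers were raised in the clusters called SMC-like, which held 3688 WT, 3107 mgR and 7893 mgR-LOS cells. Fbn1, the mutated gene, went with the labels. Levels are given as CPM, the UMIs of a gene in 1000000 UMIs of the same cells. In SMC-like cells Fbn1 stood at 252 CPM in WT, 80.7 in mgR and 68.0 in mgR-LOS.

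Most Sncg UMIs lay in SMC-like cells in all 3 libraries, although in WT their level was no higher than that of endothelial-like cells (74.9 CPM). SMC-like cells held 92.8% of all Sncg UMIs in WT, 92.1% in mgR and 92.7% in mgR-LOS, although they made up 68.8%, 38.5% and 62.0% of the cells. In these cells Sncg was counted 3221 times in WT, 17565 times in mgR and 20969 times in mgR-LOS. This was 61.8 CPM in WT (59.7 to 64.0), 363 CPM in mgR (358 to 369) and 297 CPM in mgR-LOS (293 to 301). The WT library was thus far below both mutant libraries, which lay close together. The level was 5.88-fold higher in mgR than in WT (5.66 to 6.11) and 4.80-fold higher in mgR-LOS than in WT (4.63 to 4.98). The mgR-LOS level was 0.817 times that of mgR (0.801 to 0.833).

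**Figure D1:**
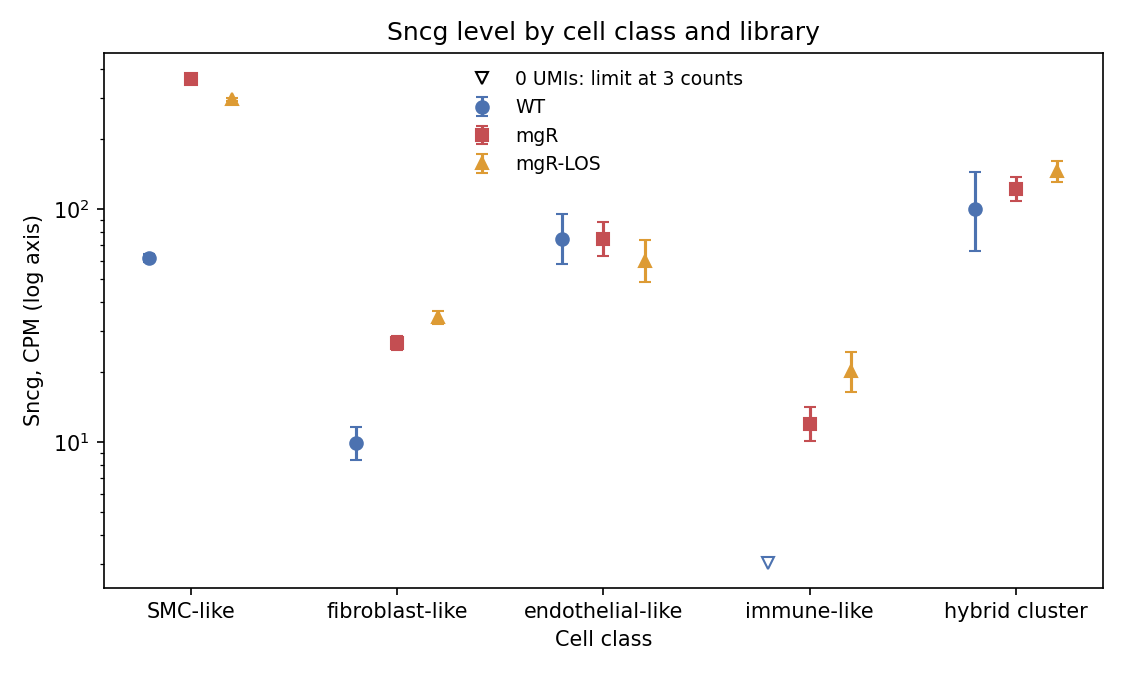
Sncg in CPM (log axis) in 5 cell classes of the WT, mgR and mgR-LOS libraries, with exact Poisson 95% intervals; the open triangle is the level that 3 counts would give in a class with 0 Sncg UMIs. SMC-like cells sit at 61.8 in WT against 363 and 297 in the mutant libraries, while endothelial-like cells sit between 60.3 and 74.9 in all 3.

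The size of the difference placed Sncg near the top of the SMC transcriptome. Of the 5480 genes at 20 or more CPM in WT or mgR SMC-like cells, 266 (4.85%) were at least 1.5-fold higher in mgR and 199 (3.63%) lower, and Sncg was at rank 16 from the highest ratio. Between mgR-LOS and WT it was at rank 10 of 5510 genes, of which 230 (4.17%) were at least 1.5-fold higher and 163 (2.96%) lower. Between mgR-LOS and mgR, 419 of 5519 genes (7.59%) moved 1.5-fold in either direction, and Sncg at 0.817 times was not among them. Some SMC-like cells held fewer than 3 UMIs of fibroblast and immune panel genes when each cell was thinned at random to 1000 UMIs. In these cells (338 of mgR and 1564 of mgR-LOS) Sncg was past the 1.5-fold limit, at 0.568 times (0.540 to 0.598). The fibroblast panel holds Col1a1, Col1a2 and Col3a1, which SMCs express as well, so these cells were also low in collagen transcripts. They were 10.9% of mgR and 19.8% of mgR-LOS SMC-like cells. These ranks rest on the contrast that selected the gene. They are given beside the 15 genes above it, of which 13 stood in mgR-LOS at 0.613 times their mgR level or less. Among them were Vcam1, an adhesion molecule of modulated SMCs (16.7 in WT, 226 in mgR and 70.1 CPM in mgR-LOS), Spp1, osteopontin (1.63, 29.7 and 5.56), and Thbs1, thrombospondin-1 (18.6, 185 and 51.1). The other 2, Eif3j2 and Rgs17, were higher in mgR-LOS than in mgR, at 1.58 and 2.10 times. Of the 15, only Igfbp2 (68.9 CPM) reached 20 CPM in WT, so the rest were in range through mgR alone. Choice by a high mgR level favors lower values in mgR-LOS, and no contrast with Sncg is drawn from them.

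The share of SMC-like cells with at least 1 Sncg UMI depends on depth, and was therefore read after each cell had been thinned to 5000 UMIs. At that depth 12.9% of WT (11.9 to 14.1), 54.7% of mgR (52.9 to 56.4) and 50.3% of mgR-LOS SMC-like cells (49.1 to 51.5) held the transcript. The share was 41.7 percentage points higher in mgR than in WT (39.6 to 43.8), and that of mgR-LOS differed from mgR by -4.38 points (-6.50 to -2.25). Thinning left out 159 WT, 66 mgR and 997 mgR-LOS cells that were too shallow. Without thinning the shares were 20.8%, 68.6% and 57.9%. Immune-like cells were read for comparison, and whether they lack the gene was not tested. Their thinned shares were 0% in WT (0 to 4.06, in 89 cells), 4.47% in mgR and 5.17% in mgR-LOS. The SMC-like shares thus lay well above the immune-like shares of the same library in all 3. Median depths were 14354, 15338 and 8527 UMIs in SMC-like cells and 8489, 7826 and 6525 UMIs in immune-like cells, in the order WT, mgR and mgR-LOS.

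**Figure D2:**
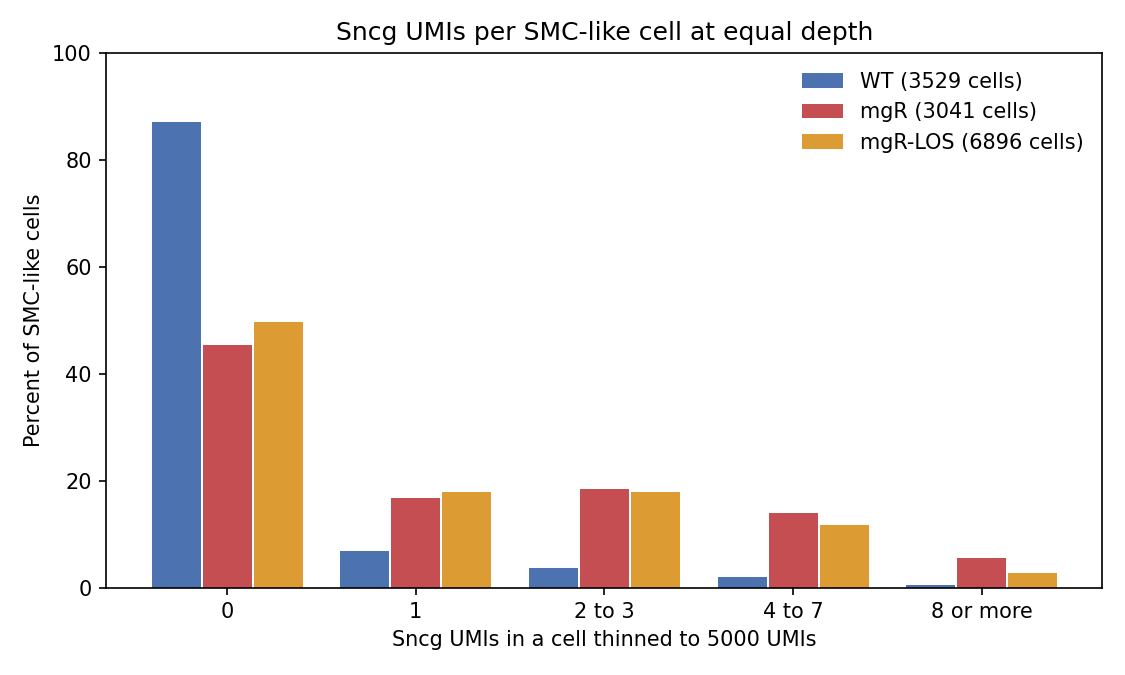
Percent of SMC-like cells with 0, 1, 2 to 3, 4 to 7 and 8 or more Sncg UMIs after thinning every cell to 5000 UMIs, as bars for 3529 WT, 3041 mgR and 6896 mgR-LOS cells. WT has 87.1% of its cells at 0, against 45.3% in mgR and 49.7% in mgR-LOS, and each library has cells in the highest bin.

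Cells of 1 library differed widely in Sncg. At 5000 UMIs the mean was 0.306 UMIs per cell in WT, 1.88 in mgR and 1.47 in mgR-LOS, yet the highest cell held 26 UMIs in each library. Equal expression in all cells would leave 73.6% of WT, 15.3% of mgR and 22.9% of mgR-LOS cells without a UMI by Poisson counting, whereas 87.1%, 45.3% and 49.7% were without one. The variance was 4.96 times the mean in WT, 4.09 times in mgR and 3.43 times in mgR-LOS, which exceeded 99.9%, 98.0% and 96.9% of the genes with a similar mean (within 1.5-fold). In WT the tenth of the cells with most Sncg held 90.4% of its UMIs, a share that the many cells without a UMI raise, and in mgR and mgR-LOS it held 45.5% and 46.5%. WT SMC-like cells with 8 or more UMIs were 0.538% of the total, against 5.59% in mgR and 2.80% in mgR-LOS. The high cells of the WT wall were thus few, and the mutant libraries held both more such cells and more cells at intermediate counts.

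SMC-like cells were clustered again with Sncg and Fbn1 left out of the clustering genes, which gave 12 clusters. Sncg was higher in mgR than in WT in 11 of the 12. In the largest, cluster 0, led by the elastic fiber genes Mfap4 and Eln and the kinase Mylk4, the level went from 26.4 CPM in WT to 265 in mgR and 222 in mgR-LOS. In cluster 1, led by the contractile genes Myl9 and Tpm2 and, further down, by the ribosomal protein genes Rps29 and Rps21, it was 36.9, 426 and 298. Myh11 in cluster 1, at 3154, 2656 and 3574 CPM, was below its level in all SMC-like cells of each library (4022, 2985 and 4111). The cells of cluster 1 were shallower than SMC-like cells as a whole, with medians of 12125, 12099 and 6597 UMIs. They came mainly from the mgR-LOS library, with 2237 of the 3020 cells. In cluster 3, led by Sost and Postn, the levels were 38.4, 348 and 245. These 3 clusters had the largest ratios of mgR to WT, at 10.0-fold, 11.5-fold and 9.07-fold, over low WT levels that raise a ratio. Cluster 7, with the lowest WT level (7.08 CPM), was 3.95-fold higher in mgR.

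A few clusters carried Sncg already in WT. Cluster 5 was led by Crip1, Gpc6 and Cdh13, with Sncg at rank 2 among its leading genes although it had no part in the clustering, and its levels were 241, 958 and 705 CPM in 161 WT, 128 mgR and 403 mgR-LOS cells. Cluster 10, led by Thbs1 and by immediate early and stress genes (Junb, Nr4a1, Atf3), stood at 800, 1185 and 607 in only 16, 42 and 79 cells. Cluster 8 was led by the cell cycle inhibitor Cdkn1a and by Mgp, Lum, Dcn and Vcam1, and it alone had a lower level in mgR: 552 in its 40 WT cells, 321 in 140 mgR cells and 412 in 212 mgR-LOS cells, a ratio of mgR to WT of 0.582 (0.509 to 0.668). Between 24.5% and 31.4% of its cells were called doublets, more than in SMC-like cells as a whole (5.10% to 10.4%), and the part of doublets in these values was not tested. Clusters 5, 8 and 10 were picked for their Sncg level in WT. That choice favors a large share of the WT UMIs and a smaller one in the mutants. Cluster 11 (228 CPM in 7 WT cells) and cluster 6 (116 CPM in 177) were not included. Clusters 5, 8 and 10 together were 5.88% of WT SMC-like cells and held 33.1% of their Sncg UMIs. In mgR they were 9.98% of the cells with 18.1% of the UMIs, and in mgR-LOS 8.79% with 19.1%.

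At the other end, cluster 7, led by Mfap5, Des, Rgs5 and Actg2, had the least Sncg in every library, with 7.08 CPM in WT, 28.0 in mgR and 35.9 in mgR-LOS. Counted over the clusters, the mgR-LOS level was above that of mgR in 3 of 12 (clusters 7, 8 and 9) and below it in the other 9, with ratios from 0.512 to 1.28. Cluster 9 was shallow, with medians of 1686, 1689 and 1573 UMIs, and its levels of 76.5, 241 and 268 rest on 19, 44 and 44 UMIs. Giving the clusters with at least 20 cells per library the same weight in each library put the levels at 70.4 CPM in WT, 373 in mgR and 288 in mgR-LOS.

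**Figure D3:**
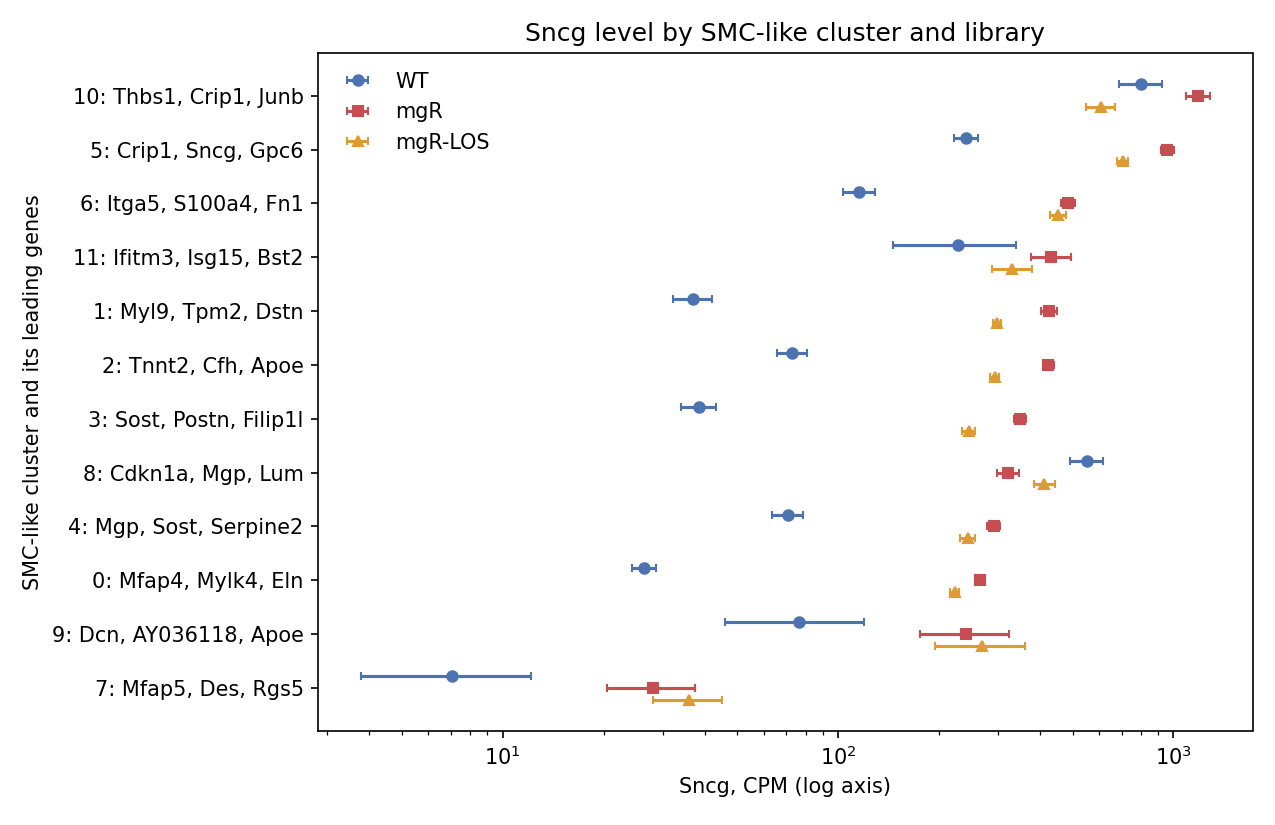
Sncg in CPM (log axis) in the 12 SMC-like clusters, each named by its 3 leading genes and ordered by the mgR level, with exact Poisson 95% intervals for WT, mgR and mgR-LOS. WT lies to the left of mgR in every cluster except cluster 8, where it stands at 552 against 321.

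Libraries also differed in mitochondrial share, whose median in SMC-like cells was 6.23% in WT, 5.73% in mgR and 5.32% in mgR-LOS. WT SMC-like cells with 3% to 5% mitochondrial transcripts held Sncg at 95.5 CPM, those with 5% to 7% held 63.4 and those with 7% to 10% held 38.2. In mgR the order was opposite, with 351, 361 and 410, and in mgR-LOS the levels were 298, 290 and 303. Below 3%, in 54 WT, 91 mgR and 379 mgR-LOS cells, they were 96.9, 245 and 382. The ratio of mgR-LOS to mgR was thus 1.56 there, against 0.849, 0.802 and 0.740 in the other bins. The ratio of mgR to WT was 2.53 below 3%, 3.67 at 3% to 5%, 5.70 at 5% to 7% and 10.7 at 7% to 10%, so that it was above 1 in every bin but varied widely in size. With a limit of 5% in place of 10% it was 3.59 (3.33 to 3.87), the share of mgR-LOS cells with Sncg at 5000 UMIs differed from that of mgR by 0.412 percentage points (-3.32 to 4.14), and mgR-LOS stood at 3.19 times WT. The part of the mitochondrial share in the difference was not tested.

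**Figure D4:**
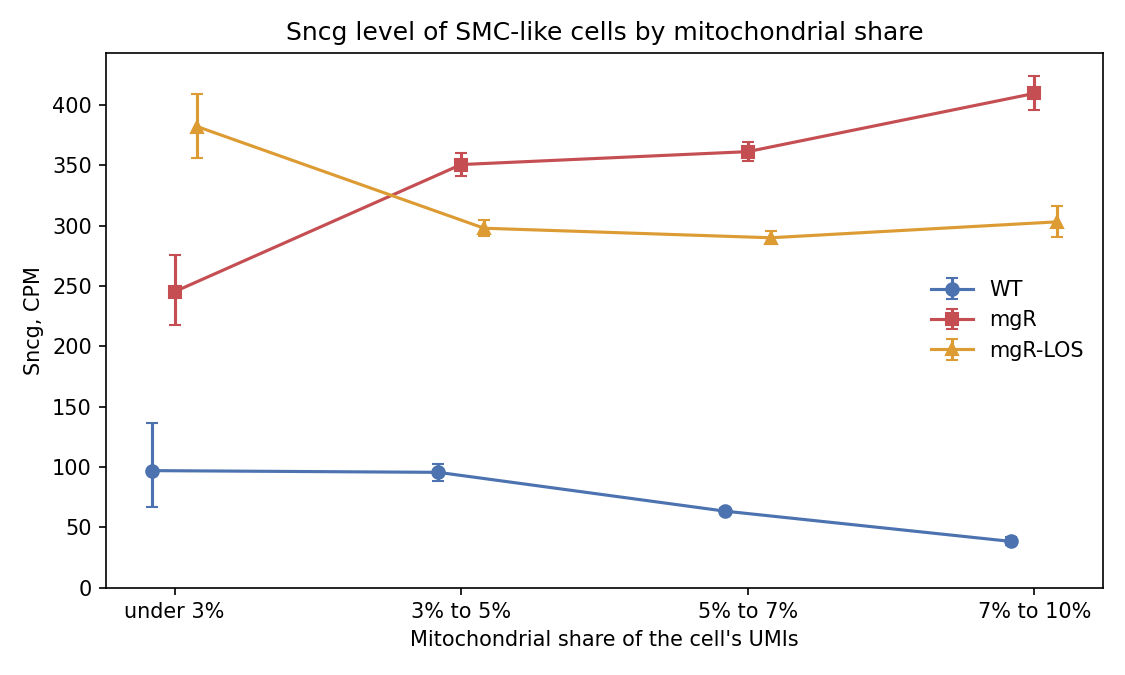
Sncg in CPM in SMC-like cells binned by the mitochondrial share of their UMIs, with exact Poisson 95% intervals, for WT, mgR and mgR-LOS. WT goes from 95.5 at 3% to 5% to 38.2 at 7% to 10% while mgR goes from 351 to 410, and WT stays below both mutant libraries in every bin.

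Among the other classes, endothelial-like cells had a Sncg level that was close in the 3 libraries. It was 74.9 CPM in WT (58.1 to 95.2), 74.8 in mgR (63.0 to 88.2) and 60.3 in mgR-LOS (48.6 to 73.9), from 67, 142 and 92 UMIs. The ratio of mgR to WT was 0.999 (0.742 to 1.36), beside 5.88 in SMC-like cells. The gene was selected on that SMC ratio, and the difference between the cell types was not tested. In the cluster led by Pecam1 and Ptprb the levels were 80.6, 59.3 and 50.3 from 87, 148 and 142 cells. In the cluster led by Mmrn1 and Cldn5 they were 53.6, 98.4 and 85.7 from only 27, 83 and 56 cells. The clusters thus ordered the libraries differently, which the level of the class does not show. In WT the endothelial-like and SMC-like intervals overlapped, as did those of the endothelial-like and hybrid clusters, the latter at 100 CPM (66.5 to 145). In the hybrid cluster 37.5% of cells held 3 or more UMIs of each of the SMC, fibroblast and immune panels at 1000 UMIs. Called doublets were 63.0% of its cells in WT, 17.1% in mgR and 85.8% in mgR-LOS, so its level is not that of a single cell type. In both mutant libraries SMC-like cells led, followed by hybrid, endothelial-like, fibroblast-like and immune-like cells, and no neighbours in that order had overlapping intervals.

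The lower levels were read beside Myh11, the smooth muscle myosin heavy chain, since free RNA from 1 source would keep its transcripts in 1 ratio. The part of free RNA in these levels was not tested. In SMC-like cells there were 15.4 Sncg UMIs per 1000 Myh11 UMIs in WT, 122 in mgR and 72.2 in mgR-LOS. Immune-like cells had 0 Sncg UMIs in 109 WT cells (0 to 3.72 CPM, where 3 counts would be 3.02 CPM), and 11.97 and 20.2 CPM in mgR and mgR-LOS. Relative to Myh11 this was 0 times the SMC ratio in WT, with a wide interval of 0 to 4.62. It was 1.23 times in mgR (1.04 to 1.46) and 1.20 times in mgR-LOS (0.984 to 1.46). In the largest immune-like cluster, led by Lyz2 and C1qa, it was 1.61 times in mgR (1.30 to 1.99) and 1.13 times in mgR-LOS (0.806 to 1.54).

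Fibroblast-like cells held 9.88 CPM in WT, 26.7 in mgR and 34.3 in mgR-LOS. Relative to Myh11 this was 7.31 times the SMC ratio in WT (6.17 to 8.61), 2.64 times in mgR (2.46 to 2.83) and 1.36 times in mgR-LOS (1.28 to 1.45). Myh11 itself stood at 88.0, 83.1 and 349 CPM in these cells, so the mgR-LOS fibroblasts held the most of this SMC transcript. Endothelial-like cells exceeded the SMC ratio 27.9-fold in WT, 7.53-fold in mgR and 2.45-fold in mgR-LOS.

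The cells that Sncg is best known from were not found among the SMC-like cells by the fixed markers used here. Of 7 adipocyte markers, 6 were below 1 CPM in each library, and the list's sum (99.8 to 123 CPM) was almost all Plin4. Fabp4, a fatty acid-binding protein gene read below, was not on that list and stood at 106, 101 and 121 CPM in WT, mgR and mgR-LOS. Of 8 neuron markers 6 or 7 were below 1, with the sum (101 to 168) almost all Uchl1, and the 7 Schwann cell markers summed to 2.26 to 3.16 CPM. Summed immune markers were 18.0 in WT, 49.3 in mgR and 60.5 in mgR-LOS, and endothelial markers 41.2, 34.0 and 37.9. Summed fibroblast markers were 3556, 4417 and 3342, led by Col1a2, a collagen gene that SMCs express as well.

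Sncb, the gene of beta-synuclein, had 0 UMIs in SMC-like cells of all 3 libraries and a single UMI in all cells together, so that it was not detectable in these SMCs at this depth.

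The genes beside Sncg differed less between the libraries than Sncg did. Sncg was selected for its difference and was at rank 16 of 5480 genes, so this shows nothing further about its neighbours. Mmrn2, an endothelial matrix glycoprotein, is transcribed away from Sncg with only 675 bases between the annotated starts, and it stood at 1.25, 1.10 and 1.34 CPM in SMC-like cells but at 356, 368 and 400 in endothelial-like cells. Bmpr1a, a receptor for bone morphogenetic proteins, was at 209 CPM in WT, 177 in mgR and 176 in mgR-LOS SMC-like cells. Fam25c, the next gene on the other side, was at 1.79, 2.54 and 2.21 CPM, the same order as Sncg at far lower levels, with ratios of 1.43 for mgR over WT (1.08 to 1.89) and 0.868 for mgR-LOS over mgR (0.681 to 1.11). The fourth neighbour, the pseudogene Gm3219, was not among the counted genes.

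Across SMC-like cells of 1 library, Sncg was compared with 4844 genes by Pearson's correlation of log(1 + UMIs) at 5000 UMIs, in 3529 WT, 3041 mgR and 6896 mgR-LOS cells. Such cells share a library and its free RNA, all correlations were weak, and they are given as a description. The gene most like Sncg in all 3 libraries was Crip1, a LIM domain protein (r = 0.184 in WT, 0.307 in mgR and 0.277 in mgR-LOS). It was followed by S100a4 (0.154, 0.167 and 0.217) and S100a6 (0.125, 0.121 and 0.141), which code for calcium-binding proteins. Cdh13 (T-cadherin), the tetraspanin Cd81, the glypican Gpc6, Lgals3 (galectin-3), the fatty acid-binding protein Fabp4, Tspo of the outer mitochondrial membrane and Mustn1 completed the 10. In cells without a Sncg UMI the mean Crip1 count was 9.17 in WT, 9.09 in mgR and 9.91 in mgR-LOS, and in cells with 4 or more it was 20.2, 18.4 and 18.1. Crip1 was picked by its correlation in these same cells, so its rise with Sncg in each library restates that choice. Its mean in the Sncg-rich cells was about as high in WT as in the mutants.

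The genes least like Sncg were Npnt, nephronectin (-0.142, -0.194 and -0.180), Mfap5 and Mfap4, microfibril-associated glycoproteins, Sost, a Wnt inhibitor, and Sparc, a collagen-binding matrix protein. Only 7 genes reached r = 0.1 in all 3 libraries and 2 fell to -0.1 or below in all 3. The level of each was also compared between libraries. Of the 10 most alike, 3 were at least 1.5-fold higher in mgR SMC-like cells (against 4.85% of all genes in range), namely S100a4 (1.79-fold), Lgals3 (1.86-fold) and Mustn1 (1.80-fold), and Crip1 was only 1.20-fold higher. Of the 5 least alike, Mfap5 and Mfap4 stood in mgR at 0.349 and 0.437 times WT.

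**Figure D5:**
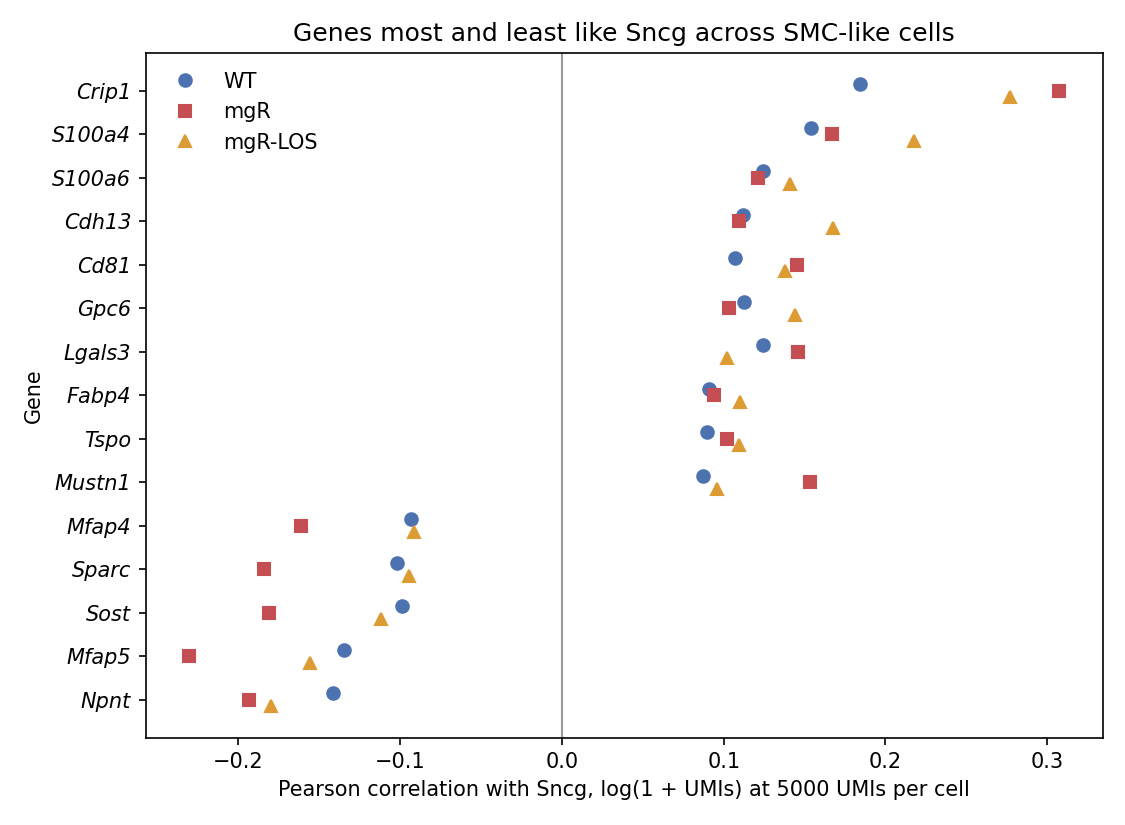
Pearson correlation with Sncg across SMC-like cells at 5000 UMIs (horizontal axis, no unit) for the 10 most and the 5 least similar genes, 1 point per library. Crip1 reaches 0.184 to 0.307, and Npnt and Mfap5 lie below -0.1 in all 3 libraries.

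A list of 16 contractile genes was also read by the Sncg count of the cell. In WT, cells with 4 or more Sncg UMIs held them at a median of 0.780 times their mean in cells without Sncg, with 3 of 16 genes at least 1.5-fold lower and 1 higher. The higher one was Pln (phospholamban), a rare transcript in these cells, with 0.379 UMIs against 0.0872, or 4.35 times. Of the 5202 genes with a mean of at least 0.1 UMIs in WT, 7.92% were lower and 5.02% higher by that measure, with a median of 0.997. In mgR the contractile median was 1.00, with 1 gene lower and 1 higher (Pln, 1.54 times), against 1.01% and 0.649% of 5239 genes. In mgR-LOS it was 0.925, with 1 lower and 0 higher, against 0.456% and 0.532% of 5261 genes. Contractile genes were not alone in this. Regional SMC genes, a list read below, had medians of 0.690 in WT, 0.665 in mgR and 0.822 in mgR-LOS. In WT 5 of 11 were lower and 1 higher, in mgR 6 and 0 of 12, and in mgR-LOS 2 and 0 of 12. Medians of the modulated SMC and matrix list were 1.08, 0.831 and 1.07. Of its genes, 3 of 7 were higher and 2 lower in WT. In mgR 1 was higher and 2 lower of 11, and in mgR-LOS 2 and 0 of 10. Not counted in WT, at under 0.1 UMIs, were Vcam1, Tnfrsf11b, Timp1, Spp1 and Ly6a. Their WT ratios were 18.7, 2.06, 1.24, 0 and 0. Medians of the synuclein partner list were 0.995, 1.00 and 1.08, with 1 of 11 genes higher in WT, 0 lower, and 0 either way in the mutants. The contractile genes with the lowest r in WT, named after their values were seen, were Myl9 (-0.174 in WT, 0.0110 in mgR and -0.0999 in mgR-LOS), Acta2 (-0.157, 0.0120 and -0.0613) and Myh11 (-0.155, 0.00183 and -0.0865). In counts, WT cells with 4 or more Sncg UMIs held 13.8 Myh11 UMIs on average against 20.02 in cells without Sncg, whereas mgR cells held 14.3 and 14.8 and mgR-LOS cells 18.2 and 20.7. These values rest on 87 WT, 592 mgR and 1003 mgR-LOS cells with 4 or more Sncg UMIs, and the difference between libraries was not tested. Of the clusters rich in Sncg in WT, cluster 8 held Myh11 at 947 CPM, against 4022 in all WT SMC-like cells. Clusters 5 and 10 held it at 3740 and 3369 CPM. The part of cluster 8 in the lower WT contractile values was not tested.

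Set beside Sncg, lists of genes that are known to move with the state of SMCs behaved variously. Among 16 contractile genes, all in the measured range, 1 was at least 1.5-fold higher in mgR than in WT (Pln, phospholamban, 2.10-fold) and 3 were lower (Des, Synpo2 and Actg2, at 0.395, 0.480 and 0.558 times), with a median ratio of 0.893 against 0.988 over all 5480 genes, of which 4.85% were higher and 3.63% lower. Of 12 genes of modulated SMCs and matrix, 11 were in range, 7 of them higher and 0 lower, with a median ratio of 4.06, and in mgR-LOS 8 of the 11 were lower and 1 higher than in mgR, with a median of 0.542, against 3.73% of all genes lower, 3.86% higher and a median of 1.01. Sncg lay above the medians of that list in both comparisons, at 5.88 and 0.817, but it was selected on these same contrasts, so its place shows nothing further. Of 12 regional SMC genes 3 were higher and 5 lower in mgR. Spp1, Tnfrsf11b, Vcam1, Timp1, Pln and Thbs1 of these lists were below 20 CPM in WT and in range only through mgR. That favors calls of higher in mgR and of lower in mgR-LOS. Some of these lists' genes were known from earlier results of these data, and the lists are no independent evidence.

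Genes of proteins that work with synucleins in neurons were also read. Of 20 such genes 11 were in range, 0 were at least 1.5-fold higher in mgR and 2 were lower, namely Stx1a, syntaxin-1A (0.588 times WT), and Map1b, a microtubule-associated protein (0.605 times), with a median ratio of 0.976. The shares over all genes were 4.85% higher and 3.63% lower. For 11 genes a count of 0 higher was thus near the background. The 2 lower of 11 were above the share over all genes, on 2 genes only. Uchl1, a ubiquitin hydrolase of neurons, was at 141 CPM in WT, 165 in mgR and 99.3 in mgR-LOS. Its correlation with Sncg was 0.0207, -0.00869 and 0.0291. Between mgR-LOS and mgR, Map1b was higher (1.58 times) and Uchl1 lower (0.602 times), with a median ratio of 0.984 over the list.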

How the data were processed

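The authors deposited filtered matrices of UMI counts per gene and cell from the Chromium 3' assay, aligned by them to GRCm38; the submitters' processing notes name Cell Ranger 6.0.1, while the file headers give 5.0.1 for WT and mgR and 6.0.1 for mgR-LOS. Totals were 83338726, 123956320 and 121436873 UMIs. Sncg and the gene lists were chosen with earlier results of these data known. Cells were filtered as the authors describe, integrated with Seurat 5.3.0 (2000 variable genes, 30 dimensions, resolution 0.5), and clusters were named from fixed markers; T cell, cycling and mixed clusters stayed unnamed. Doublets were scored against artificial pairs (230, 522 and 1295 called) and kept, with removal as an alternative. The number called was set beforehand at 0.8% of cells per 1000 cells in the library. Its shares of 4.29%, 6.46% and 10.2% are therefore not measured rates, and shares of called doublets in different libraries cannot be compared as such. Levels are CPM with exact Poisson intervals, ratios have exact conditional binomial intervals, and shares have exact Clopper-Pearson intervals. Calls of 1.5-fold required 20 CPM in either library. Steps were tested on simulated data. Named genes were Sncg, Sncb, the nearest 2 neighbours of Sncg on each side, the 10 most and 5 least similar genes by the weakest of the 3 correlations, and list members; genes ranked above Sncg were named after their values were seen. An item withheld for evaluation is not reported here.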

Additional observations from a re-analysis of the deposited data

Results flagged for a closer look

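In endothelial-like cells of the cluster led by Pecam1 and Ptprb, Sncg stood in mgR at 0.737 times its WT level (0.511 to 1.07, from 57 WT and 68 mgR UMIs), while in SMC-like cells it was 5.88-fold higher. The other endothelial-like cluster, led by Mmrn1 and Cldn5, was at 1.84 (0.944 to 3.99) and the class as a whole at 0.999 (0.742 to 1.36). All 3 endothelial intervals of mgR over WT hold 1, so that no opposite direction is shown in that comparison. For mgR-LOS over WT the cluster led by Pecam1 and Ptprb stood at 0.624 (0.423 to 0.920), an interval below 1. The cluster led by Mmrn1 and Cldn5 was at 1.60 (0.780 to 3.61) and the class at 0.805 (0.581 to 1.12). The difference between the cell types was not tested, since each condition is 1 library.

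SMC-like cluster 8, led by Cdkn1a, Mgp and Lum, had a ratio of mgR to WT of 0.582, against 1.48 to 11.5 in the other 11 clusters. Its WT level rests on 40 cells. At 5000 UMIs 39.5% of the 38 WT cells deep enough held Sncg (24.0 to 56.6), against 48.2% of 137 mgR cells (39.6 to 56.9), and these intervals overlap. The difference between the clusters was not tested.

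Barcodes that failed the filter on genes or mitochondrial share also held Sncg, at 163 CPM in mgR (158 to 168), above 47.0 in WT (43.4 to 50.8). In mgR-LOS they stood at 130.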

How the results depend on the processing

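No paired analysis was possible because each condition is 1 library, and for the same reason no replicate could be left out. Sncg stayed higher in mgR and in mgR-LOS than in WT under all 12 alternatives. On the log2 scale, mgR over WT was 2.56, and it was 1.84 with a 5% mitochondrial limit, 2.64 without called doublets, 2.48 with each cell named without clusters, 2.63 at resolution 0.2, 2.49 with a total that leaves out mitochondrial, ribosomal protein, globin and 2 ribosomal RNA genes, 2.41 with SMC clusters weighted alike and 2.71 in cells with fewer than 3 fibroblast and immune panel UMIs at 1000 UMIs per cell. For the same changes mgR-LOS over WT, 2.26 as reported, was 1.67, 2.36, 2.20, 2.31 (where it moved little), 2.25 (likewise), 2.03 and 1.89, and 2.32 at resolution 1. For mgR-LOS over mgR, -0.29 as reported, it was -0.17 at the 5% limit, -0.26 without the upper gene limit, -0.33 at resolution 0.2 and as a mean over cells, -0.24 with the reduced total, -0.38 with clusters weighted alike and -0.81 in the cells with fewer than 3 panel UMIs, which is past the 1.5-fold limit, at levels of 549 and 312 CPM; the cause was not tested. The share of SMC-like cells with Sncg in mgR was 41.7 points above WT, 20.7 at 1000 UMIs, 29.5 at 2000, 47.8 unthinned, and 31.9 both at the 5% limit and for 2 or more UMIs. For mgR-LOS against WT it was 37.3, then 17.5 at 1000 UMIs, 25.8 at 2000, 32.3 at the 5% limit and 26.3 for 2 or more UMIs. Between mgR-LOS and mgR it was -4.38 (-6.50 to -2.25), -10.7 unthinned, and 0.412 at the 5% limit, where the interval (-3.32 to 4.14) holds 0; the cause was not tested. Of the 10 genes most like Sncg, 8 to 10 were shared with each of 4 alternatives. With 1 library per condition, depth limits the counting error only, and nothing here bounds the spread between animals.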

Other observations

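Within the fibroblast-like class, the cluster led by Dcn, Col1a1 and Col1a2 had most Sncg, at 16.4 CPM in WT, 36.2 in mgR and 38.9 in mgR-LOS. The cluster led by Pi16 and Mfap5, genes of adventitial fibroblasts, had least, at 1.90, 6.66 and 19.4. In the T cell receptor cluster led by Trbc2 and Cd3g the levels were 0 in 22 WT cells, 60.5 in mgR and 48.2 in mgR-LOS, and its Sncg per Myh11 was 1.01 times that of SMC-like cells in mgR (0.749 to 1.33) and 0.850 times in mgR-LOS (0.526 to 1.30).

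Over all cells that passed, with no cell naming, Sncg was at 49.6 CPM in WT, 191 in mgR and 204 in mgR-LOS. The order of the 2 mutant libraries was thus opposite to that within SMC-like cells, beside SMC-like shares of 38.5% and 62.0% of the cells.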
